A study of Mus musculus with 154 samples.

Results

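The double chromosome substitution strain (B6.A5 X B6.A6)F1 carried A/J-derived chromosomes 5 and 6, and liver RNA was sequenced from 4 of its mice. The whole series held 24 strains, with 20 mice of the control strain, 63 mice of 8 strains with a single substituted chromosome and 71 mice of 15 double strains. The 4 mice were chosen by their strain label, together with the 3 strains needed to read them. These were (B6.A5 X B6)F1 with 7 mice, (B6 X B6.A6)F1 with 8 mice and the control strain B6 with 20 mice, where the sire of each cross is written first. A mouse of (B6.A5 X B6)F1 was heterozygous for A/J-derived chromosome 5, a mouse of (B6 X B6.A6)F1 was heterozygous for A/J-derived chromosome 6, and a mouse of the double strain was heterozygous for both. All other chromosomes came from B6 (C57BL/6J) in every group, and all 39 mice were males of 5 weeks of age that had been fasted overnight before the caudate lobe of the liver was taken. The substitution is a whole chromosome, so that an effect cannot be placed on a gene or region within it, and effects that need 2 A/J copies of an allele cannot be seen in heterozygous mice. By the labels, A/J chromosome 6 always came from the dam and A/J chromosome 5 always from the sire. An effect of the substitution thus cannot be told apart from an effect of that parent's strain or of the parent of origin.

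A chromosome substitution strain is an inbred strain in which a single chromosome pair has been replaced by that of another inbred strain. When substituted chromosomes are combined by a cross, the effects of each on a gene are additive if the double strain differs from B6 by the sum of what each does alone, and any departure from that sum is an interaction, or epistasis. The liver makes glucose from other molecules during a fast, stores glycogen after a meal and makes most plasma proteins, and its RNA comes mainly from hepatocytes. Differences in such bulk RNA can come from fewer cells of a type or from less RNA per cell, and these cannot be told apart. The study asked whether pairs of substituted chromosomes act independently of each other on fasting glucose and on hepatic gene expression. The comparison described here asks this of the chromosome 5 and 6 pair for every measured gene.

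The table held counts for 13289 genes. Total counts were between 8669549 and 18495229 in the double strain, between 6059667 and 26335513 in (B6.A5 X B6)F1, between 14438123 and 24134282 in (B6 X B6.A6)F1 and between 6752637 and 25630807 in B6. No pair of libraries within a strain was alike to within sampling noise, as the smallest chi-square per gene over the pairs was 14.2. All 39 mice had Y-linked counts, and summed over 4 Y-linked genes the double strain had 270 to 316 CPM (counts of a gene scaled to a common library size). Nothing in the labels ties mice to litters or libraries to flow cells, so that p-values measure only the spread between mice. That spread was estimated over the mice of all 24 strains and not from the 4 double strain mice alone. The Alb, Ttr, Apoa1, Cps1 and Serpina1c transcripts that define hepatocytes summed to between 87988 and 103944 CPM in the double strain, inside the B6 range of 86373 to 144731 CPM, and the defining markers of the labelled tissue were thus present.

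In the double strain, 322 of the 13289 genes differed from B6 (2.42%, edgeR quasi-likelihood F-test, Benjamini-Hochberg adjusted p under 0.05). Of these, 195 genes were higher (1.47% of all genes) and 127 were lower (0.956% of all genes). The share of called genes was higher on the substituted chromosomes, where p-values were adjusted separately. On chromosome 5, 89 of 971 genes were called (9.17%), on chromosome 6, 57 of 712 genes (8.01%), and elsewhere in the genome, 1.52% of 11606 genes. The chromosome 5 calls were 47 higher and 42 lower, with a median absolute log2 fold change of 0.50. Those on chromosome 6 were 33 higher and 24 lower (median 0.40), and those elsewhere were 115 higher and 61 lower (median 0.42). The differences were mostly small, since 33 of the 322 genes differed by more than 2-fold. The median log2 fold change over all genes was near 0 (-0.0013). Mouse 3 was the only one of the 4 whose removal kept the count at a like size, with 328 genes. Without mouse 1, mouse 2 or mouse 4, between 115 and 150 genes were called, with the lowest count without mouse 2. With 0 surrogate variables, 248 genes were called, and with the 39 mice of the 4 strains alone and also 0 surrogate variables, 166 genes.

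Among chromosome 5 genes whose log2 CPM averaged 2 or more, those with the largest differences between the double strain and B6 included Gbp11, Sult1e1, Abhd1, Slc15a4, Gbp4, Zbed5 and Pebp1. Gbp11 (chr5:105323042-105346472, minus strand, mm10) belongs to the guanylate-binding proteins, a family of interferon-inducible GTPases whose members share sequence, and the annotation calls it a polymorphic pseudogene. Its 4 double strain mice had 22.8, 28.0, 17.8 and 23.4 CPM, against 1.28 to 4.0 CPM in B6 with a median of 2.48. In (B6.A5 X B6)F1 the level was between 14.2 and 26.3 CPM with a median of 19.6, whereas in (B6 X B6.A6)F1 it was between 2.76 and 6.96 CPM with a median of 3.65. The mice thus fell into a high pair of strains, both with A/J chromosome 5, and a low pair without it, with no overlap between them. On the log2 scale, Gbp11 was higher than B6 by 3.09 ± 0.17 (SE; adjusted p = 4.52e-34) in the double strain. Chromosome 5 alone gave 2.98 ± 0.15 and chromosome 6 alone 0.64 ± 0.17, so that the sum of both was 3.63. The difference of the double strain from that sum was -0.54 ± 0.27 (95% interval -1.07 to -0.02) and did not pass the adjustment. Reads of Gbp family members can be split between copies, so the levels of Gbp11 and Gbp4 are uncertain to that extent.

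Abhd1 (chr5:30950066-30955091, plus strand), named for its alpha/beta hydrolase fold, had 18, 19.1, 30.8 and 21.9 CPM in the double strain. It lay between 1.97 and 5.04 CPM in B6 (median 3.66), between 20.7 and 30.4 CPM in (B6.A5 X B6)F1 (median 24.2) and between 1.80 and 3.11 CPM in (B6 X B6.A6)F1 (median 2.41). Every mouse with A/J chromosome 5 was again above every mouse without it. From B6 it differed by a log2 fold change of 2.78 ± 0.14 in the double strain (adjusted p = 3.1e-39) and 2.86 ± 0.11 for chromosome 5 alone. Slc15a4 (chr5:127595664-127632897, minus strand) encodes a proton-coupled transporter of histidine and small peptides in endolysosomes. Levels of 72.9, 70.7, 65.4 and 56.5 CPM were measured in the double strain, against 18.3 to 36.4 CPM in B6 and 23.3 to 28.9 CPM in (B6 X B6.A6)F1. The 7 mice of (B6.A5 X B6)F1 were between 52.2 and 67.2 CPM, which overlapped the double strain and neither of the other strains. Slc15a4 thus had a log2 fold change of 1.32 ± 0.11 in the double strain and 1.16 for the sum of both single effects (difference 0.15 ± 0.16, 95% interval -0.17 to 0.48).

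Pebp1 (chr5:117282654-117287625, minus strand) encodes phosphatidylethanolamine-binding protein 1, also known as Raf kinase inhibitor protein. It was measured at 103.8, 121.9, 91.4 and 128.4 CPM in the double strain and at 91.1 to 122.4 CPM in (B6.A5 X B6)F1. In B6 it was between 45.8 and 64.9 CPM and in (B6 X B6.A6)F1 between 55.8 and 74.7 CPM, below every mouse with A/J chromosome 5. Pebp1 had a log2 fold change of 1.04 ± 0.06 in the double strain (adjusted p = 2.12e-32), of 0.95 ± 0.05 for chromosome 5 alone and of 0.23 ± 0.05 for chromosome 6 alone. Their sum was 1.17, and the double strain differed from it by -0.13 ± 0.09 (95% interval -0.31 to 0.05). Gbp4 was at 7.49, 11.9, 7.39 and 7.34 CPM in the double strain and at 2.05 to 5.63 CPM in B6, and the groups did not overlap. Its log2 fold change was 1.08 ± 0.17 in the double strain and 0.97 ± 0.13 for chromosome 5 alone.

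Zbed5 and Sult1e1 were lower in the double strain. For Zbed5, derived from a transposable element, the log2 fold change was -1.06 ± 0.18 in the double strain and -1.11 ± 0.13 for chromosome 5 alone. Sult1e1 encodes estrogen sulfotransferase. Its levels were low in the double strain, at 0.69, 0.39, 0.62 and 0.27 CPM, and spread widely in B6, from 0.67 to 48.7 CPM with a median of 4.63. The median was 1.74 CPM in (B6.A5 X B6)F1 and 0.42 CPM in (B6 X B6.A6)F1, and the double strain overlapped both. Sult1e1 was called for chromosome 6 alone (-2.65 ± 0.55, adjusted p = 0.000976) and not for chromosome 5 alone (-1.28 ± 0.46, adjusted p = 0.0687), and chromosome 5 on the chromosome 6 background gave -0.31 ± 1.14. Its log2 fold change of -2.96 ± 0.87 (adjusted p = 0.0185) did not pass without mouse 1 (-3.13, adjusted p = 0.0546), mouse 2 (-2.97, adjusted p = 0.067) or mouse 3 (-2.62, adjusted p = 0.124).

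**Figure D1:**
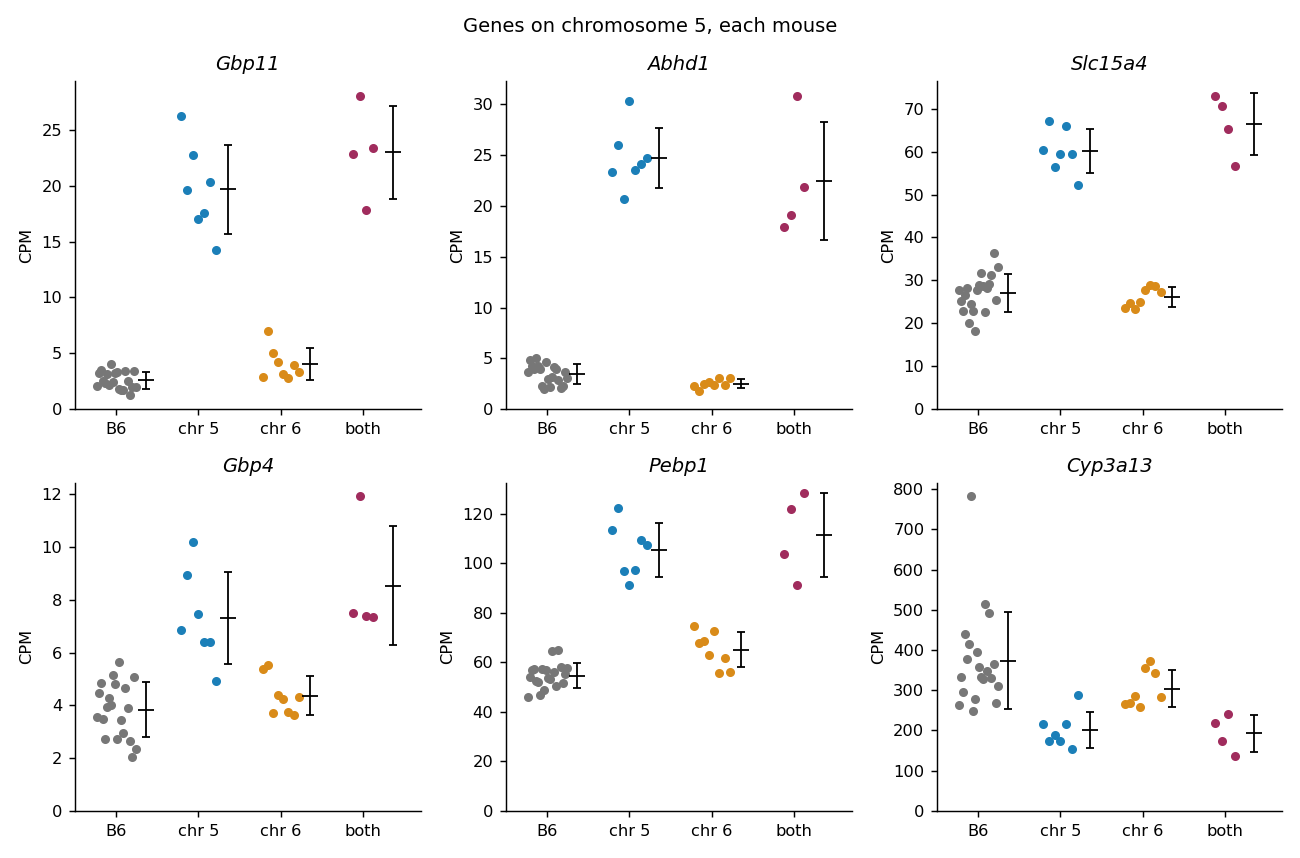
Expression of genes on chromosome 5 by mouse. Each point is the level of the gene in 1 mouse in CPM on a linear axis from 0, for B6 (n = 20), (B6.A5 X B6)F1 (chr 5, n = 7), (B6 X B6.A6)F1 (chr 6, n = 8) and the double strain (both, n = 4), and bars are the mean ± SD. For Gbp11, Abhd1, Slc15a4 and Pebp1, the mice with A/J chromosome 5 lie above all mice without it, whether or not they also carry A/J chromosome 6.

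On chromosome 6, the 8 genes were Asns, Slc41a3, Hist4h4, Mug2, Dysf, Pik3c2g, Gm45769 and Smo. Asns (chr6:7675169-7693254, minus strand) encodes asparagine synthetase and is a known target of the transcription factor ATF4, which acts when amino acids are scarce. In the double strain it was at 6.91, 2.76, 6.48 and 1.97 CPM, and in B6 between 7.36 and 54.8 CPM with a median of 15.7, so the 2 groups did not overlap. The single strains were low as well, with 3.68 to 11.3 CPM (median 6.59) in (B6.A5 X B6)F1 and 1.95 to 10.1 CPM (median 3.61) in (B6 X B6.A6)F1. The medians of all 3 strains with A/J chromosomes were thus below the lowest B6 mouse, and the double strain overlapped each single strain. Asns differed from B6 by a log2 fold change of -1.85 ± 0.46 in the double strain (adjusted p = 0.00405), -1.47 ± 0.33 for chromosome 5 alone (adjusted p = 0.0236) and -1.81 ± 0.33 for chromosome 6 alone (adjusted p = 9.41e-06). The sum of the single effects was -3.28, and the double strain departed from it by 1.43 ± 0.61 (95% interval 0.22 to 2.63, adjusted p = 0.756). Before adjustment the p-value of that difference was 0.0209, and over the alternatives the difference was between 1.15 and 1.64.

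Part of the Asns promoter is shown because Asns was called in the double strain and in both single strains, with the log2 fold change of the double strain nearer to that of each single strain than to their sum. The 30 bases before its RefSeq start (chr6:7693210-7693239, minus strand, RefSeq GRCm38.p6) hold the letters TGATGAAAC, known as a nutrient-sensing response element, which are in capitals 23 to 15 bases before that start. GENCODE places the start of Asns further upstream, so that by its annotation these 30 bases lie inside the gene. No longer stretch is shown for that reason. The promoter was chosen after the values of the gene were seen.
Asns: agccacaTGATGAAACttcccgcacgcgtt
Within 250 bases before the start, 70 of 32851 mouse promoters (0.213%) held TGATGAAAC or its reverse complement GTTTCATCA. The match is a description of the sequence of the B6 reference, and whether the A/J copy differs there was not tested.

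Hist4h4 (chr6:136801553-136804415, minus strand), which encodes a histone H4 identical in protein sequence to that of other H4 genes, was at 9.1, 10.3, 5.85 and 7.34 CPM in the double strain. It was between 5.51 and 10.3 CPM in (B6 X B6.A6)F1, between 1.56 and 4.01 CPM in (B6.A5 X B6)F1 and between 1.20 and 6.53 CPM in B6. The double strain did not overlap the strain with A/J chromosome 5 alone. Hist4h4 was higher than in B6 by 1.46 ± 0.18 (adjusted p = 1.68e-10), and chromosome 6 alone gave 1.28 ± 0.14. Mug2 (chr6:122006761-122085965, plus strand) encodes murinoglobulin 2, a plasma protease inhibitor close in sequence to Mug1. It was at 199, 195, 208 and 213 CPM in the double strain, at 239 to 707.6 CPM in B6, at 269 to 471 CPM in (B6.A5 X B6)F1 and at 127.6 to 187.8 CPM in (B6 X B6.A6)F1. The double strain was below every mouse without A/J chromosome 6 and above every mouse with that chromosome alone. Mug2 had a log2 fold change of -0.96 ± 0.17 in the double strain and -1.19 ± 0.13 for chromosome 6 alone, and the double strain departed from the sum of -1.35 by 0.39 ± 0.21 (95% interval -0.03 to 0.81).

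Dysf encodes dysferlin, a protein of membrane repair. It was lower in the double strain, at 2.07, 2.86, 3.47 and 2.33 CPM against 3.23 to 6.17 CPM in B6, with 1 double strain mouse inside the B6 range. In log2 terms the difference was -0.88 ± 0.15, and it was -0.85 ± 0.11 for chromosome 6 alone and 0.03 ± 0.10 for chromosome 5 alone. Slc41a3, from a family of magnesium transporters, was at -1.61 ± 0.34 in the double strain, -1.39 ± 0.23 for chromosome 6 alone and -0.83 ± 0.24 for chromosome 5 alone, the last of which did not pass. Pik3c2g, a class II phosphoinositide 3-kinase of the liver, was higher by 0.59 ± 0.11, with mouse 3 at 43.0 CPM apart from the other 3 mice at 25.3 to 27.6 CPM. Its call was lost with 0 surrogate variables (0.45, adjusted p = 0.0797) and with only the 4 strains and 0 surrogate variables (0.46, adjusted p = 0.12). Smo, the signal transducer of the Hedgehog pathway, was higher by 0.57 ± 0.13 but did not pass without mouse 1 (0.44, adjusted p = 0.0721) or with only the 4 strains and 0 surrogate variables (0.46, adjusted p = 0.0906). Gm45769, a predicted gene, was at -0.59 ± 0.11.

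Away from chromosomes 5 and 6, the 8 genes were Igfbp1, 1810053B23Rik, Marco, Aqp8, Scd1, Slc17a8, Nrg4 and Sdr9c7. Aqp8 (chr7:123462291-123468004, plus strand) encodes aquaporin-8, a water channel of hepatocytes. It was at 21.1, 27.5, 18.4 and 27.6 CPM in the double strain and between 6.10 and 14.2 CPM in B6, with no overlap. Mice of (B6.A5 X B6)F1 had 11.8 to 23.6 CPM and mice of (B6 X B6.A6)F1 had 8.66 to 26.2 CPM. Each single strain therefore overlapped both B6 and the double strain. For Aqp8 this gave a log2 fold change of 1.27 ± 0.20 in the double strain (adjusted p = 1.66e-05), 0.68 ± 0.17 for chromosome 5 alone (adjusted p = 0.0456) and 0.92 ± 0.16 for chromosome 6 alone (adjusted p = 5.82e-05). The double strain differed from the sum of 1.59 by -0.33 ± 0.29 (95% interval -0.90 to 0.24). Sdr9c7, a short-chain dehydrogenase, had the like order, with 0.98 ± 0.18 in the double strain against 0.61 ± 0.15 and 0.79 ± 0.14 for the single strains. Nrg4, a growth factor of the neuregulin family, was also called in all 3 strains, at -1.0 ± 0.28 in the double strain against -0.84 ± 0.21 and -0.64 ± 0.19. Without any 1 of the 4 double strain mice the Nrg4 call was lost (-1.10 to -0.93, adjusted p = 0.0706 to 0.151), as it was with 0 or 10 surrogate variables, with only the 4 strains and with a count filter of 15 counts in 75% of mice (-1.20 to -0.79, adjusted p = 0.0517 to 0.095).

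Igfbp1 (chr11:7197782-7202546, plus strand) encodes an insulin-like growth factor binding protein that the liver secretes in the fasted state and whose transcription insulin represses. Its levels were 74.4, 40.2, 157 and 22.2 CPM in the double strain and 56 to 693.8 CPM in B6 with a median of 229. Mice 2 and 4 were below every B6 mouse, while mice 1 and 3 were within the B6 range. Igfbp1 had a log2 fold change of -1.84 ± 0.48 in the double strain (adjusted p = 0.0235), -0.67 ± 0.35 for chromosome 5 alone (adjusted p = 0.45) and -1.30 ± 0.35 for chromosome 6 alone (adjusted p = 0.00977). The sum was -1.97, and the double strain differed from it by 0.13 ± 0.58 (95% interval -1.02 to 1.28). The call did not pass without mouse 1 (-1.90, adjusted p = 0.0782), mouse 2 (-1.64, adjusted p = 0.166) or mouse 4 (-1.63, adjusted p = 0.153).

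The promoter of Igfbp1 is shown as that of the gene with the largest difference away from the substituted chromosomes among called genes whose log2 CPM averaged 2 or more, and it was also chosen after the values were seen. The 250 bases before its start (chr11:7197537-7197786, plus strand, RefSeq GRCm38.p6) hold the letters CAAAACAA, the core of an insulin response element, which are in capitals 108 to 101 bases before the start.
Igfbp1: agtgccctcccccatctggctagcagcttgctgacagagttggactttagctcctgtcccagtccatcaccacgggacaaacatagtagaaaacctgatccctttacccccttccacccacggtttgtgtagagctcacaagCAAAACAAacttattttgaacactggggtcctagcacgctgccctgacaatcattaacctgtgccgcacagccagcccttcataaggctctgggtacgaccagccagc
These letters or their reverse complement TTGTTTTG were in 2.21% of the 32851 promoters. By their labels all 39 mice carry B6 chromosome 11.

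Scd1 (chr19:44394455-44407879, minus strand) encodes stearoyl-CoA desaturase, which makes monounsaturated fatty acids. It was at 2017, 3518, 1001 and 2506 CPM in the double strain, at 574 to 1772 CPM in B6, at 627 to 1461 CPM in (B6.A5 X B6)F1 and at 1209 to 3049 CPM in (B6 X B6.A6)F1. Mouse 3 lay within the B6 range and the other 3 mice above it. In the model, Scd1 had a log2 fold change of 1.06 ± 0.25 in the double strain (adjusted p = 0.00871), 0.02 ± 0.21 for chromosome 5 alone and 0.90 ± 0.20 for chromosome 6 alone. Without mouse 2 the difference was 0.75 (adjusted p = 0.233). Marco, a scavenger receptor of macrophages, was at 8.64, 6.02, 18.97 and 5.90 CPM against 10.045 to 104 CPM in B6, with mouse 3 inside that range. Its log2 fold change of -1.31 ± 0.32 did not pass without mouse 1 (-1.23, adjusted p = 0.0783), mouse 2 (-1.13, adjusted p = 0.152) or mouse 4 (-1.21, adjusted p = 0.0934), or with only the 4 strains and 0 surrogate variables (-1.53, adjusted p = 0.108). Slc17a8, the vesicular glutamate transporter VGLUT3, was at 1.0 ± 0.26 and did not pass without mouse 1, 2 or 4 (0.89 to 1.07) or with only the 4 strains (1.14, adjusted p = 0.111). The RIKEN gene 1810053B23Rik was at -1.35 ± 0.33 and did not pass without mouse 1 (-1.29, adjusted p = 0.0674) or mouse 4 (-1.18, adjusted p = 0.115) or with only the 4 strains (-1.61, adjusted p = 0.0695).

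**Figure D2:**
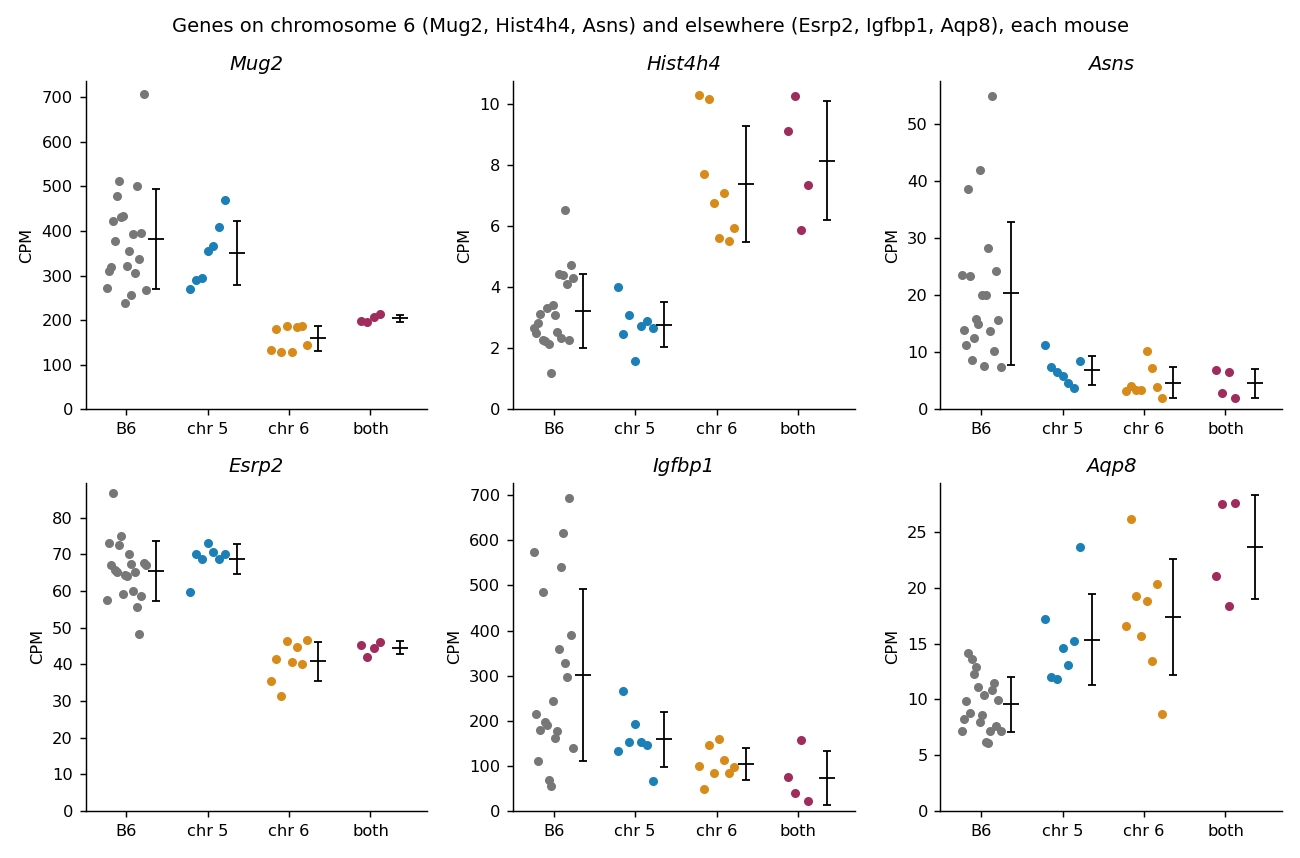
Expression of genes on chromosome 6 and elsewhere by mouse. Points are single mice in CPM on a linear axis from 0, with the mean ± SD as bars, for B6 (n = 20), (B6.A5 X B6)F1 (chr 5, n = 7), (B6 X B6.A6)F1 (chr 6, n = 8) and the double strain (both, n = 4). The double strain lies with (B6 X B6.A6)F1 for Hist4h4 and Esrp2, and for Asns all 3 strains with A/J chromosomes lie low.

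The second comparison set the double strain against the sum of both single effects. No gene passed (0%, edgeR quasi-likelihood F-test, adjusted p under 0.05), and the lowest adjusted p was 0.69 on chromosomes 5 and 6 and 0.851 elsewhere. At an unadjusted p under 0.05 there were 755 genes (5.68%), of which 359 departed upwards from the sum and 396 downwards. DESeq2's Wald test also called 0 genes, with 750 at an unadjusted p under 0.05, and edgeR with its newer settings called 0 with 779. Neither did any other alternative call a gene, with 583 to 940 genes at an unadjusted p under 0.05. A count of 0 called genes does not show that the effects add, and the width of the intervals shows which departures could have been missed. The median SE of the departure was 0.15 on the log2 scale. For 11803 genes (88.8%) the whole 95% interval lay within a departure of 1, that is 2-fold, and for 7788 genes (58.6%) within 0.5. For the 9716 genes whose log2 CPM averaged 2 or more, these shares were 97.2% and 78.2%.

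Of the 322 genes called in the double strain against B6, 14 (4.35%) departed from the sum at an unadjusted p under 0.05, a share near the 5.68% of all genes. The 322 genes were chosen by their values in the double strain, which enter the departure. For 291 of them (90.4%) the interval of the departure lay within 1. The median absolute log2 fold change of the 322 genes in the double strain was 0.43, and the median of the sums, taken in the direction of the double strain, was 0.41. For the 89 genes on chromosome 5, these medians were 0.50 and 0.50, for the 57 genes on chromosome 6 they were 0.40 and 0.35, and for those elsewhere 0.42 and 0.40. Genes called for a substitution on B6 were chosen by single strain values, which enter it too. Off the substituted chromosome, 198 of 976 such genes for chromosome 6 (20.3%) and 14 of 27 for chromosome 5 (51.9%) departed likewise. On it, 11 of 99 and 8 of 75 did. For the 976 genes, in the direction of chromosome 6 alone, the median was 0.19 in the double strain and 0.37 for the sum. The double strain and the single strains were each compared with the same 20 B6 mice, so their values are set side by side here and not counted as separate evidence.

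**Figure D3:**
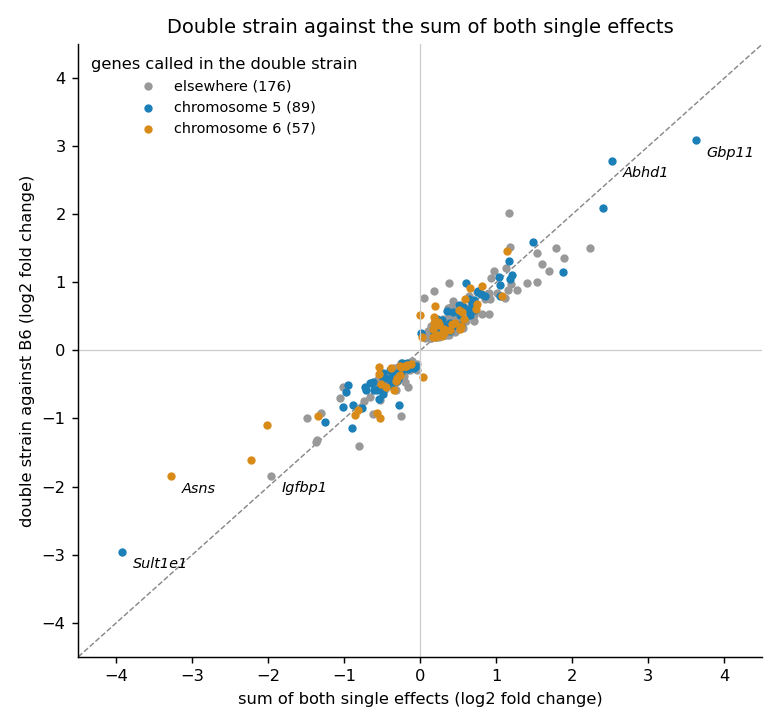
The double strain against the sum of both single effects. Each point is 1 of the 322 genes called in the double strain, coloured by its chromosome, with the sum of the log2 fold changes of both substitutions alone on the x axis, the log2 fold change of the double strain from B6 on the y axis and a dashed line where both are equal. Their median absolute log2 fold change was 0.43 against 0.41 for the sum, with the same B6 mice entering both axes. The genes were chosen by their values on the y axis.

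Of the genes whose log2 CPM averaged 2 or more, the 3 with the lowest p above the sum and the 3 below it are named, and none passed the adjustment (adjusted p = 0.851 for each). Above the sum were Ick, a kinase of primary cilia, Ap2b1, a subunit of the clathrin adaptor AP-2, and Cic, a transcriptional repressor. Ick was at 13.8, 11.2, 14 and 12.6 CPM in the double strain and at 9.51 to 15.9 CPM in B6, inside that range. The single strains were between 8.81 and 12.7 CPM, and the departure was 0.53 ± 0.14 (95% interval 0.25 to 0.81). For Ap2b1 the departure was 0.27 ± 0.08 and for Cic 0.47 ± 0.15. Below the sum were the predicted genes Gm38194, with -0.45 ± 0.12, and Gm26905, with -0.42 ± 0.12, and Slmap, which encodes a tail-anchored membrane protein. Slmap had a narrow spread, at 58.7, 58.2, 66.0 and 63.6 CPM in the double strain, 65.2 to 72.1 CPM in (B6.A5 X B6)F1, 67.7 to 79.0 CPM in (B6 X B6.A6)F1 and 63.6 to 77.5 CPM in B6. The departure of Slmap was -0.23 ± 0.06 (95% interval -0.36 to -0.11).

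Brca2, a gene of homologous recombination on chromosome 5, was at 7.60, 9.96, 6.25 and 6.71 CPM in the double strain, against 4.68 to 10.05 CPM in B6 with a median of 7.0. In (B6 X B6.A6)F1 it was at 6.79 to 11.2 CPM with a median of 10.1. Chromosome 6 alone gave a log2 fold change of 0.51 ± 0.10 (adjusted p = 0.000653), chromosome 5 alone 0.08 ± 0.11 and the double strain 0.05 ± 0.14, so that it was 0.53 below the sum (SE 0.19, 95% interval -0.91 to -0.15, adjusted p = 0.756). Over the alternatives, that departure of Brca2 was between -0.69 and -0.42. Cyp3a16 was at 3.11, 1.78, 0.28 and 1.07 CPM in the double strain, and its departure of -1.81 ± 0.96 had a wide interval from -3.70 to 0.07. Agt, Agxt, Ldha and Zkscan3, which encode angiotensinogen, an aminotransferase, a lactate dehydrogenase subunit and a zinc finger protein, were at -0.13, -0.24, -0.14 and 0.00 on the log2 scale in the double strain. None of these 4 was called.

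Each substitution could also be measured on the background of the other, without any B6 mouse. The double strain against (B6 X B6.A6)F1 gives the effect of chromosome 5 on the chromosome 6 background, and it shares no mice with (B6.A5 X B6)F1 against B6. On that background 42 genes were called (0.316%), all of which were on chromosome 5, 25 higher and 17 lower, with a median absolute log2 fold change of 0.62. Without mouse 2 the count was 27, with 0 surrogate variables 28 and with only the 4 strains and 0 surrogate variables 21. Off chromosome 5, 0 of 12318 genes passed with edgeR, where 841 had an unadjusted p under 0.05. On the B6 background chromosome 5 had 102 called genes (0.768%), 75 on chromosome 5 and 27 elsewhere. Of the 75 genes, 68 (90.7%) had the same direction on the chromosome 6 background, compared with 610 of all 971 chromosome 5 genes (62.8%). Across the 75 genes the log2 fold changes on both backgrounds had a Pearson's r of 0.919, and across all 971 genes of 0.598. The median in the direction of the B6 background was 0.46 on B6 and 0.38 on the chromosome 6 background. Called on both were 34 genes, which are 45.3% of the 75 and 81.0% of the 42. The 75 genes were chosen by their values on the B6 background, genes are not independent replicates, and both fold changes come from a model with shared surrogate variables.

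By the same minimum on average level, the largest effects of chromosome 5 on the chromosome 6 background were those of Abhd1, Gbp11, Slc15a4 and Gbp4. Abhd1 was at 3.12 ± 0.17 on the chromosome 6 background and 2.86 ± 0.11 on B6, and Gbp11 at 2.44 ± 0.21 and 2.98 ± 0.15. Slc15a4 was at 1.33 ± 0.13 and 1.18 ± 0.09, and Gbp4 at 1.02 ± 0.19 and 0.97 ± 0.13. The difference between backgrounds is the departure from the sum given above, which passed the adjustment for none of them. Of the 27 genes called on B6 off chromosome 5, 20 (74.1%) had the same direction on the chromosome 6 background, against 6927 of all 12318 such genes (56.2%). None of the 27 was called there. Their median in the direction of the B6 background was 0.61 on B6 and 0.08 on the chromosome 6 background. The lower median is a description, since these genes too were chosen by their values on the B6 background. In (B6.A5 X B6)F1, 7 mice and 20 B6 mice gave a median SE of 0.10 on chromosome 5, against 0.14 for the 4 double strain mice and 8 mice of (B6 X B6.A6)F1.

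Chromosome 6 on the chromosome 5 background was measured by the double strain against (B6.A5 X B6)F1. There were 17 called genes (0.128%), of which 16 were on chromosome 6, 8 higher and 8 lower. Without mouse 1 the count was 10, with 0 surrogate variables 13, with only the 4 strains and 0 surrogate variables 11, and with p-values adjusted over all genes at once 8. On the B6 background chromosome 6 had 1075 called genes (8.09%), 99 on chromosome 6 and 976 elsewhere. Of the 99, 85 (85.9%) had the same direction on the chromosome 5 background, against 62.9% of all 712 chromosome 6 genes, with a Pearson's r of 0.780 across the 99. Called on both were 13 genes, 13.1% of the 99 and 81.3% of the 16, and the median in the direction of the B6 background was 0.29 on B6 and 0.15 on the chromosome 5 background. Of the 976 genes elsewhere, 786 (80.5%) had the same direction, against 7726 of all 12577 such genes (61.4%), and their median was 0.28 on B6 and 0.10 on the chromosome 5 background. In the model with the 4 strains alone and 0 surrogate variables, 715 of 861 genes called elsewhere (83.0%) had the same direction and the medians were 0.35 and 0.13. The lower median is a description, since the genes were chosen by their values on the B6 background.

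Of the called chromosome 6 genes whose log2 CPM averaged 2 or more, those with the largest differences on the chromosome 5 background were Hist4h4 at 1.60 ± 0.22, Dysf at -0.91 ± 0.17, Pik3c2g at 0.80 ± 0.13 and Mug2 at -0.80 ± 0.18. On B6 they were at 1.28, -0.85, 0.71 and -1.19. With only the 4 strains and 0 surrogate variables, Pik3c2g did not pass on the chromosome 5 background (0.66, adjusted p = 0.0961). The gene called off chromosome 6 was Esrp2 (chr8:106130319-106136974, minus strand), which encodes an RNA-binding protein that controls splicing in epithelial cells. It is named as the only call there and was chosen after its values were seen. Esrp2 was at 45.3, 42.1, 44.6 and 46.2 CPM in the double strain, at 31.4 to 46.8 CPM in (B6 X B6.A6)F1, at 59.9 to 73 CPM in (B6.A5 X B6)F1 and at 48.3 to 86.8 CPM in B6. All 12 mice with A/J chromosome 6 were below all 27 mice without it. The log2 fold change of chromosome 6 was -0.62 ± 0.06 on the chromosome 5 background (adjusted p = 1.04e-12) and -0.60 ± 0.04 on B6, with a departure from the sum of -0.02 ± 0.08 (95% interval -0.17 to 0.13).

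**Figure D4:**
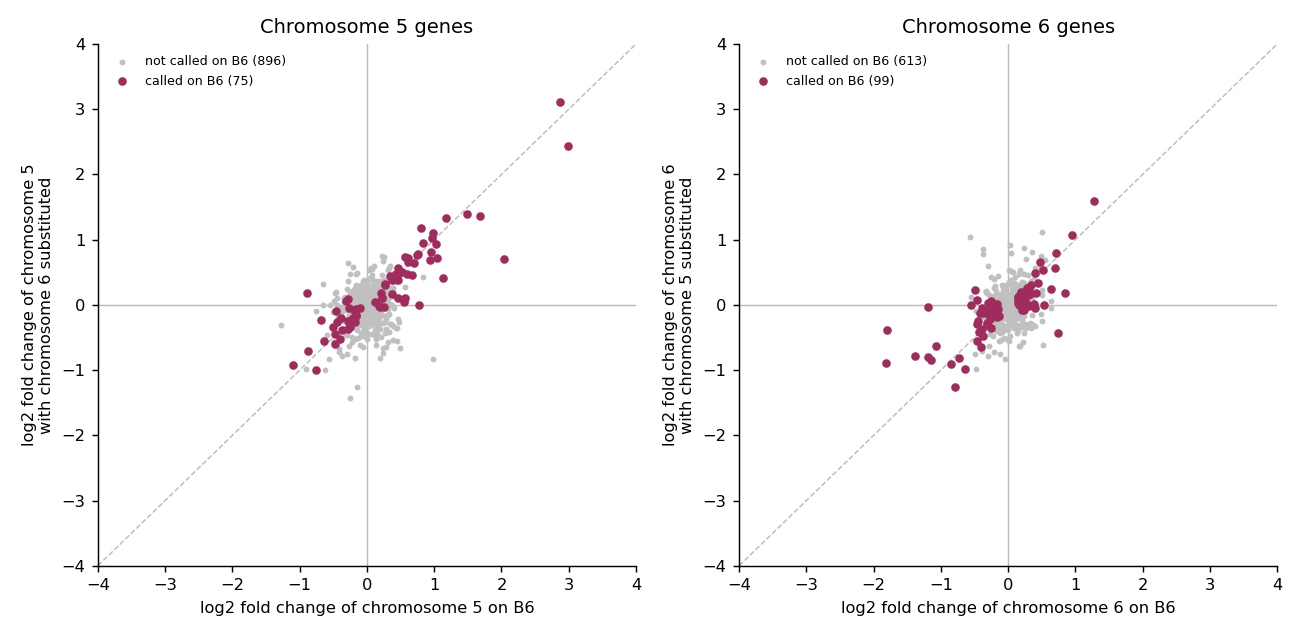
The effect of each substitution on both backgrounds. Each point is a gene on the substituted chromosome, with its log2 fold change on the B6 background on the x axis and on the background of the other substitution on the y axis, and the pairs of strains on the axes share no mice. The dashed line marks equal values. Genes called on B6 are in colour, and 68 of 75 genes for chromosome 5 and 85 of 99 genes for chromosome 6 lie in the quadrants of the same direction.

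Genes of fasting metabolism are set beside the shares over all genes in the double strain, which were 2.42% called and 16.6% at an unadjusted p under 0.05. Calls of list members are those of edgeR with the main settings. Of 14 gluconeogenesis genes 0 were called, with a median log2 fold change of -0.17, and 4 had an unadjusted p under 0.05. Without mouse 3, 1 of the 14 was called. Among the most abundant of them was Pck1, the cytosolic enzyme that makes phosphoenolpyruvate from oxaloacetate, at -0.23 ± 0.16. Pck1 was at 3450, 3549, 3604 and 2902 CPM in the double strain and at 1242 to 5177 CPM in B6, and thus within the control range. Of 22 genes of glycolysis and glycogen 0 were called (median 0.03, 4 at an unadjusted p under 0.05) and 1 with 10 surrogate variables, with Ugp2, which makes UDP-glucose, at 0.05. Of 22 genes of fatty acid oxidation and ketogenesis 0 were called (median -0.13, 6 at an unadjusted p under 0.05), while 1 was called by DESeq2, 1 with only the 4 strains and 1 without mouse 3, with the fatty acid hydroxylase Cyp4a14 at -0.63 ± 0.27.

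Of 20 genes of insulin and glucagon signalling, 2 were lower and 0 higher (median -0.13), namely Igfbp1 and Igfbp2, where 0.956% of all genes were called lower. Igfbp2, a second binding protein secreted by the liver, was at 401.1, 224.9, 468.7 and 255.9 CPM in the double strain, 236 to 435 CPM in (B6 X B6.A6)F1, 433 to 810 CPM in (B6.A5 X B6)F1 and 355 to 1150 CPM in B6. Mice 2 and 4 were below every B6 mouse, as they were for Igfbp1. Igfbp2 had a log2 fold change of -0.74 ± 0.18 (adjusted p = 0.0154), -0.66 ± 0.14 for chromosome 6 alone and -0.08 ± 0.14 for chromosome 5 alone. It did not pass without mouse 2 (-0.60, adjusted p = 0.181) or mouse 4 (-0.65, adjusted p = 0.13), with 10 surrogate variables (-0.60, adjusted p = 0.0529) or with only the 4 strains (-0.76, adjusted p = 0.0731). The list had 1 called gene without mouse 1 and 0 without mouse 2 or mouse 4. Of 12 genes of fatty acid synthesis, Scd1 was the 1 called gene, and the list had 0 without mouse 2.

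Of 23 genes of cholesterol synthesis and its control 0 were called in the double strain, 2 had an unadjusted p under 0.05 and the median was 0.04. In (B6.A5 X B6)F1, 5 of these genes were higher and the median was 0.34, with 21 of 23 above 0. Of all 13289 genes, 60 were called higher in that strain. The 5 genes, chosen after their values were seen, were Mvk and Fdps of the mevalonate and farnesyl steps and Sqle, Cyp51 and Msmo1 of the later sterol steps. Sqle, squalene epoxidase, was at 2.30, 4.54, 1.70 and 5.64 CPM in the double strain, at 3.7 to 13.2 CPM in (B6.A5 X B6)F1, at 1.04 to 2.84 CPM in (B6 X B6.A6)F1 and at 0.94 to 10.3 CPM in B6. The double strain overlapped each of the other 3 groups. The same mouse of (B6.A5 X B6)F1 was the highest of its strain for all 5 genes. Msmo1 was at 24.2 to 111 CPM in that strain (median 54.2) and at 18.6 to 47.8 CPM in B6 (median 26.8). No alternative left out a mouse of a single strain, so how far the 5 calls rest on a few mice was not tested. In the double strain the log2 fold changes of Mvk, Fdps, Sqle, Cyp51 and Msmo1 were -0.01, -0.33, 0.02, -0.13 and 0.39, and for chromosome 5 alone they were 0.55, 1.02, 1.25, 0.56 and 1.0. Their departures from the sum were -0.50 ± 0.24, -1.08 ± 0.48, -0.55 ± 0.57, -0.46 ± 0.34 and -0.48 ± 0.36, none of which passed the adjustment. The mice of (B6.A5 X B6)F1 that chose these genes also enter the departures. Sc5d, a sterol desaturase among the most abundant members, was at 0.07 in the double strain.

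Of 20 measured members of the drug-metabolizing families on chromosome 5, 2 were higher and 3 lower (median 0.14), against 9.17% of chromosome 5 genes called in all. Cyp3a13, a cytochrome P450, was at 218.8, 172.7, 241.3 and 137.5 CPM in the double strain and 152.9 to 287 CPM in (B6.A5 X B6)F1, against at least 258.6 CPM in (B6 X B6.A6)F1 and 249 to 784 CPM in B6. The double strain was below both strains without A/J chromosome 5. Cyp3a13 had a log2 fold change of -0.84 ± 0.14 in the double strain (adjusted p = 1.59e-06) and -0.88 ± 0.11 for chromosome 5 alone. Por, the reductase that supplies electrons to cytochromes P450, was at -0.59 ± 0.17 and did not pass without mouse 2, 3 or 4 (-0.59 to -0.54, adjusted p = 0.0525 to 0.0778) or with 10 surrogate variables (-0.40, adjusted p = 0.0582). Ugt2b1, a glucuronosyltransferase, was at 0.56 ± 0.16 and did not pass without mouse 1 (0.56, adjusted p = 0.0609) or mouse 4 (0.42, adjusted p = 0.183) or with only the 4 strains (0.60, adjusted p = 0.089). Cyp3a25 was at 0.38 ± 0.12 and did not pass without mouse 1, 2 or 4 (0.31 to 0.39, adjusted p = 0.0881 to 0.199). Its call was also lost with 0 surrogate variables (adjusted p = 0.063), the count filter (adjusted p = 0.0784) and adjustment over all genes (adjusted p = 0.0716). The third gene that was lower is Sult1e1, described above. Without mouse 1, 2 or 4 the list had 2 called genes. Members of the Cyp3a and Ugt2b families share sequence, so their levels are uncertain. Of Alb, Afp and Afm, the albumin family on chromosome 5, 0 were called, none of them at an unadjusted p under 0.05, with Alb at 0.02 and Afm at 0.07. On a list of 17 measured protease inhibitors, transporters and reductases on chromosome 6, Mug2 was the 1 called gene (median -0.01), against 8.01% of chromosome 6 genes called in all.

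Of 22 interferon-stimulated genes, 3 were higher and 0 lower in the double strain, against 1.47% of all genes called higher. Of the 3, Oasl1 and Usp18 lie on the substituted chromosomes, where 80 of 1683 genes were called higher. The median log2 fold change was 0.37 and 21 of 22 were above 0, where the median of all genes was -0.0013. For chromosome 6 alone 20 of 22 were above 0 (median 0.18), and for chromosome 5 alone 17 of 22 (median 0.12). Bst2, or tetherin, was at 67.6, 65.8, 39.8 and 59.7 CPM against 27.6 to 63.1 CPM in B6, with 2 of the 4 mice above the B6 range. Bst2 had a log2 fold change of 0.45 ± 0.12 in the double strain, 0.37 ± 0.09 for chromosome 6 alone and 0.09 ± 0.10 for chromosome 5 alone. Oasl1, a member of the oligoadenylate synthetase-like family on chromosome 5, was at 6.56, 9.87, 7.84 and 8.05 CPM, against 2.43 to 9.37 CPM in B6, with mouse 2 above that range. Oasl1 was higher by 0.68 ± 0.22. Usp18, the protease that removes ISG15 from proteins, on chromosome 6, was at 15.8, 16.7, 20.3 and 14.3 CPM against 6.28 to 21.3 CPM in B6, inside that range. Usp18 was at 0.52 ± 0.17 in the double strain and at -0.02 ± 0.15 and 0.02 ± 0.14 in the single strains. The departure of Usp18 from the sum was 0.52 ± 0.24 and did not pass the adjustment. Each of the 3 calls was lost when a mouse was left out and under some other settings. Bst2 was lost without mouse 1, 2 or 4 (0.40 to 0.45, adjusted p = 0.102 to 0.157), Oasl1 without any mouse (0.59 to 0.78, adjusted p = 0.0518 to 0.168) and Usp18 without any mouse (0.44 to 0.58, adjusted p = 0.058 to 0.183). Bst2 was also lost with 0 surrogate variables (adjusted p = 0.0639) and the count filter (adjusted p = 0.0578). Oasl1 was lost with the count filter (adjusted p = 0.0585) and adjustment over all genes (adjusted p = 0.0753). Usp18 was lost with 0 surrogate variables (adjusted p = 0.131), with only the 4 strains (adjusted p = 0.213) and with adjustment over all genes (adjusted p = 0.0847). The list had 0 called genes without mouse 1 or mouse 2 and 1 without mouse 3 or mouse 4.

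Of 10 measured genes of the ATF4 stress response, Asns was the 1 called gene (median -0.21). Of 18 clock genes 0 were called (median -0.21, 4 at an unadjusted p under 0.05), with Clock at 0.12 and Tef at -0.27. Of 16 acute phase genes 0 were called (median -0.22, 3 at an unadjusted p under 0.05) and 1 each with 0 surrogate variables and with the count filter, with the fibrinogen chains Fgb at -0.25 and Fga at -0.28. The 9 male-biased liver genes had a median of 0.41 with 0 called and 4 at an unadjusted p under 0.05, with Mup3, a major urinary protein, at 0.41 and Serpina1e, an alpha-1-antitrypsin, at 0.01. The 6 female-biased genes had a median of -1.004 with 0 called and 3 at an unadjusted p under 0.05. They ran from -1.72 to 1.59, with 2 of the 6 above 0. The error of the cytochrome P450 Cyp2b9 was wide, at -1.59 ± 1.21. Without the mouse of another strain that lacks Y-linked counts, 1 gene of each of these lists was called, and with adjustment over all genes 1 male-biased gene.

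**Figure D5:**
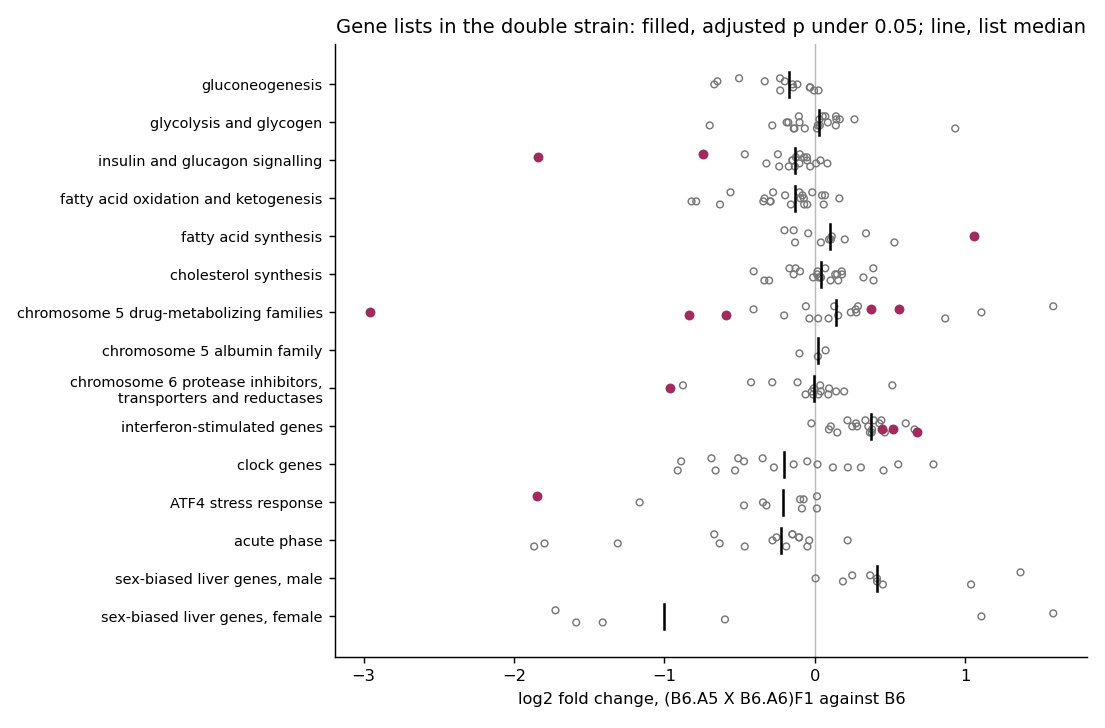
Log2 fold change of the double strain from B6 for the members of each gene list. Each circle is a gene, filled where it was called, and the line of each list is its median. The medians run from -1.004 for the 6 female-biased genes to 0.41 for the 9 male-biased genes, while the median of all 13289 genes was -0.0013.

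Markers of other liver cells were compared in the same way. Of 6 Kupffer cell markers, Clec4f was higher (0.25) and Marco lower, where 1.47% of all genes were called higher and 0.956% lower. The call of Clec4f was not followed through the alternatives. The 6 markers summed to between 300 and 377 CPM, within the B6 range of 294 to 526.6 CPM. The endothelial markers summed to between 301 and 320 CPM (B6 259 to 329), the stellate cell markers to between 348 and 414 CPM (B6 319 to 553), the cholangiocyte markers to between 34.7 and 47.6 CPM (B6 21.3 to 59.7) and the erythroid markers to between 182 and 292 CPM (B6 111 to 739). None of the members of these 4 lists was called. Markers of lymphocytes, exocrine pancreas and adipocytes were represented by at most 2 measured genes each, and Cd3e, Nkg7, Krt19, Cpa1, Pnlip, Prss2, Adipoq and Plin1 were not among the genes of the table. The part of cell makeup in the differences described above was not tested.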

How the data were processed

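The authors sequenced stranded total RNA of livers from male mice of 24 strains. They mapped single-end reads with TopHat2 to mm10, then mapped what did not align to a genome carrying A/J variants, and obtained counts per gene with HTSeq-count. The deposited values are raw counts, not normalized, for 13289 genes, the number that the paper gives after its filter on low counts. Some of these genes do not meet that filter as the paper words it, of 15 counts in 75% of mice. The paper found that mapping efficiency did not differ significantly between B6 and the substitution strains, over the genome or for the substituted chromosome. An A/J copy of a single gene that aligns better or worse than that of B6 would move its counts. Such a bias of single genes was not tested here.

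Groups were taken from the strain labels. TMM library sizes came from edgeR 4.0.16 in R 4.3.3, and svaseq of sva 3.50.0 supplied 5 surrogate variables. A single model with B6 as reference, 8 main effects and 15 interactions was fitted to the mice of all 24 strains, as the study's methods did. Each contrast was tested by the quasi-likelihood F-test of edgeR with legacy=TRUE. Benjamini-Hochberg adjustment was done once over genes on the substituted chromosomes and once over the others, and an adjusted p under 0.05 was called. The double strain against B6, its departure from the sum of both single effects (the interaction), and each substitution on the background of the other were contrasts of this model. The SE of a log2 fold change was its absolute value divided by the square root of F. CPM values used TMM library sizes. Gene positions came from GENCODE vM21 for 13242 genes, and 47 genes had none and were counted as lying elsewhere.

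The genes named were the 8 largest log2 fold changes among called genes averaging a log2 CPM of 2 or more on chromosome 5, on chromosome 6 and elsewhere, the 3 lowest p-values on each side of the sum, up to 6 called members of each list or its 2 most abundant members where none was called, the 4 largest effects on each background, and 7 genes that the study names. Some genes that meet these rules are not reported here. The members and lists were chosen with earlier results of these data known. The alternatives were 0 or 10 surrogate variables, only the 4 strains with 0 surrogate variables, leaving out 1 mouse of another strain that lacks Y-linked counts, size factors of DESeq2 1.42.0, its Wald test, legacy=FALSE, a filter of 15 counts in 75% of mice, adjustment over all genes, and leaving out each double strain mouse in turn. Mice are numbered in accession order. Depth limits the precision of genes with low counts, and the intervals are 95% intervals over mice.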

Additional observations from a re-analysis of the deposited data

Results flagged for a closer look

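Of 186 groups of 4 to 8 mice tested among genes named in the text, 9 had a mouse far from the others, and chance flags about 1 in 20 groups. Not every named gene was tested, and Clec4f and the genes under Other observations were left out. In the double strain, the mouse far above the other 3 was mouse 2 for Gbp4 (11.9 CPM, next 7.49) and mouse 3 for Pik3c2g (43.0 CPM, next 27.6). It was mouse 1 for Cic (13.6 CPM, next 10.9) and mouse 4 for Cyp51 (34.4 CPM, next 18.2). By this rule each of the 4 mice thus stood apart for 1 gene. Short of the rule, mouse 3 was the highest of the 4 for Igfbp1, Cyp4a14 and Marco and the lowest for Scd1, Bst2 and Slc17a8. Mouse 3 also had the most total counts of the 4. These genes were picked after their values were seen, and for other genes another mouse was highest or lowest. Whether mouse 3 differs from the other 3 as a whole was not tested. In (B6.A5 X B6)F1, the highest mouse stood apart for Zbed5 (5.56 CPM, next 4.41), Sdr9c7 (37.9 CPM, next 21.9) and Cyp3a25 (1608 CPM, next 1219), and the lowest mouse for Esrp2 (59.9 CPM, next 68.8). In (B6 X B6.A6)F1, the highest mouse stood apart for Sult1e1 (2.15 CPM, next 0.98).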

How the results depend on the processing

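The 41 called log2 fold changes that were followed through the alternatives kept their direction under all 13 of them (533 values), and 66 of these values no longer passed. The values of Clec4f and of the genes under Other observations were not followed in this way. No gene was called against the sum of both single effects under any alternative. The count of genes called in the double strain against B6 (322) was 166 with only the 4 strains, which were fitted without surrogate variables, and 115 (without mouse 2) to 328 (without mouse 3) without 1 mouse. For chromosome 5 on the chromosome 6 background, the count of 42 was 21 with only the 4 strains and 27 (without mouse 2) to 42 without 1 mouse. For chromosome 6 on the chromosome 5 background, the count of 17 was 11 with only the 4 strains, 8 with adjustment over all genes and 10 (without mouse 1) to 15 without 1 mouse. On B6, chromosome 5 had 64 called genes with 0 surrogate variables and 41 with only the 4 strains, and chromosome 6 had 400 with 10 surrogate variables. Values near 0 that changed sign in the double strain were those of Gm38194 with the count filter (0.041), Gm26905 with 0 surrogate variables (0.019), 10 surrogate variables (0.011), only the 4 strains (0.021) and the filter (0.12), Alb with 0 surrogate variables (-0.046) and only the 4 strains (-0.044), Serpina1e with 10 surrogate variables (-0.092), DESeq2 size factors (-0.0034) and the filter (-0.026), Brca2 with 10 surrogate variables (-2.9e-05), Zkscan3 with DESeq2 size factors (-0.00081) and DESeq2 (-0.0013), and Sqle with 10 surrogate variables (-0.031), and the departure of Esrp2 with 0 surrogate variables (0.055) and only the 4 strains (0.053). Without 1 mouse, sign changes were in Cic (-0.062 to 0.087), Gm38194 (-0.21 to 0.00028), Gm26905 (-0.088 to 0.057), Alb (-0.016 to 0.045), Serpina1e (-0.083 to 0.057), Brca2 (-0.13 to 0.17), Zkscan3 (-0.032 to 0.046), Mvk (-0.074 to 0.048), Sqle (-0.30 to 0.30), Cyp51 (-0.37 to 0.022) and the departure of Esrp2 (-0.030 to 0.0065). The cause of these changes was not tested. Leaving out a mouse gives fewer samples, and the fit of only the 4 strains changed both the mice and the surrogate variables. No paired analysis was possible because the labels carry no replicate numbers. With 4 double strain mice, the interval of the departure from the sum reached past 2-fold for 1486 genes, 274 of which averaged a log2 CPM of 2 or more. It lay within 0.5 on the log2 scale for 58.6% of all genes and 78.2% of those averaging 2 or more. Departures smaller than 2-fold could thus be missed in genes of higher counts too.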

Other observations

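Further genes on chromosome 6 were called with edgeR both in the double strain against B6 and for chromosome 6 on the chromosome 5 background. They are named after their values were seen, and their calls were not followed through the alternatives. Among genes lower in the double strain were Rarres2, which encodes the secreted chemoattractant chemerin, with a log2 fold change of -0.41 ± 0.10 against B6 and -0.48 ± 0.11 on the chromosome 5 background, and Bid, which encodes a pro-apoptotic member of the BCL-2 family, with -0.53 ± 0.12 and -0.55 ± 0.14. Both were also called for chromosome 6 on B6, with Rarres2 at -0.37 ± 0.07 and Bid at -0.47 ± 0.09. Among genes higher were Cadps2, a factor of dense-core vesicle release, with 0.42 ± 0.12 and 0.65 ± 0.13, and Thsd7a, which carries thrombospondin repeats, with 0.94 ± 0.23 and 1.07 ± 0.28. Ggct, which encodes gamma-glutamylcyclotransferase of glutathione breakdown, was at -0.40 ± 0.12 in the double strain and at -0.11 ± 0.08 for chromosome 6 on B6, where it was not called, and its departure from the sum of -0.43 ± 0.16 did not pass the adjustment (adjusted p = 0.756).

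The acute phase genes Saa1 and Lcn2 had wide errors in the double strain, with log2 fold changes of -1.87 ± 0.91 and -1.31 ± 0.69 that did not pass. For chromosome 6 on B6 both were called, with Saa1 at -1.98 ± 0.67 and Lcn2 at -1.59 ± 0.50. On the chromosome 5 background, Saa1 was at -0.38 ± 0.94 and Lcn2 at -0.11 ± 0.76, and neither departure from the sum passed the adjustment.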
